A study of Drosophila melanogaster with 16 samples.

Results

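Phototransduction genes were followed in RNA from P1 neurons, a fru-expressing cluster of the male Drosophila melanogaster brain, in mated and naive males. The set was a list of 34 genes of fly phototransduction and the retina, chosen by their known roles and matched to the count tables by FlyBase symbol. Of these, 33 had a row among the 17559 genes; the identifier that the name table gives for Pld, a phospholipase D, was not among the rows, so Pld was not analysed here. All flies were UAS>stop>GFP/+ together with fruFLP/NP2631-Gal4, in which green fluorescence marks cells where the NP2631-Gal4 driver and fruFLP overlap. The labels give their age as 3 to 6 days and their time alone as virgins as 4 to 6 days. Both spans cannot hold at the same time for the youngest flies. The mated group, 4 libraries, came from males that were then paired with a female, and the naive group, also 4 libraries, from males that stayed virgin. The labelled cells were collected by patch pipette within 0.5 hours of the end of training; the cluster holds 12 cells, and the labels do not say how many cells or animals gave a library.

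Fly photoreceptors sense light with rhodopsins, which switch on a Gq protein and through it the phospholipase C encoded by norpA. Breakdown of the membrane lipid PIP2 then opens the TRP and TRPL cation channels, and arrestins end the response by binding the activated rhodopsin. Some of the parts are made almost only in photoreceptors, while others, such as norpA, Galphaq and Calx, also serve signalling in neurons and other cells. On general knowledge, not on the values below, 18 of the 33 genes were classed as photoreceptor-restricted and 15 as also used outside the eye.

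Total counts ran from 7440583 to 13651313 in mated libraries and from 6897560 to 9162763 in naive libraries. Levels are counts per 1000000 (CPM) of the TMM-scaled library size, and a gene was called read in a library at 3 counts, the detection floor. The 4 neuron markers, among them elav and brp, were read in all 8 libraries, with a summed level of 3462 to 5725 CPM in mated and 5850 to 8519 CPM in naive libraries. fru, which defines the cells, had 220, 51.1, 329 and 545 CPM in mated libraries 1 to 4, against 712, 897, 1149 and 345 CPM in naive libraries 1 to 4. Its log2 fold change was -1.44 ± 0.54 (SE; edgeR, unadjusted p = 0.0188), which did not pass over all genes (edgeR, adjusted p = 0.325), and its part in the results below was not tested. dsx, also expressed in P1 neurons, had 47.8 to 124 CPM in mated and 34.3 to 168 CPM in naive libraries (edgeR, adjusted p = 0.921). Floors and intervals cover counting error only, since the reads carried no molecular identifiers, and p-values measure the spread between these libraries, which may be partly technical. In bulk RNA, fewer cells of a type and less RNA per cell cannot be told apart.

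Naive P1 libraries held a set of phototransduction transcripts. At least 3 counts in all 4 naive libraries were found for 15 of the 33 genes, against 31.9% of all 17559 genes. Of the 15, 9 belonged to the genes used outside the eye: Gprk1, rdgC, Galphaq, norpA, inaE, rdgA, rdgB, CdsA and Calx. The other 6 were the photoreceptor-restricted genes ninaE, Rh2, Rh4, Arr1, Arr2 and Ggamma30A. A further 11 were mixed, reaching 3 counts in some naive libraries only, and 7 stayed under 3 counts in all 4 (Rh3, Rh5, laza, ninaA, ninaB, ninaD and ninaG). Because this split uses the naive values, fold changes by class are given only as a description.

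Ggamma30A, a G protein gamma subunit found in photoreceptors, was the most abundant gene of the set. Per kilobase of exon it stood at 608 ± 164 CPM in naive libraries (SD, n = 4), above every other member and with no overlap with the next. In CPM it had 4914, 2509, 6529 and 4545 in mated libraries 1 to 4, against 7464, 8416, 9750 and 4881 in naive libraries 1 to 4. The groups overlapped only through naive library 4, which lay below mated libraries 1 and 3. Its class thus went against its level here: it was listed as photoreceptor-restricted, yet it had at least 28870 counts in each library. The log2 fold change was -0.72 ± 0.29 (SE; edgeR, unadjusted p = 0.0237) and did not pass once adjusted over the whole table (edgeR, adjusted p = 0.359).

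Below Ggamma30A, the naive order per exon kilobase was Gprk1, norpA, CdsA and Galphaq, at 231 ± 35.8, 161 ± 35.6, 139 ± 55.0 and 132 ± 34.9 CPM (SD, n = 4). Each of these 4 overlapped its neighbour in the order, while the lowest naive value of Gprk1 lay above the highest of Galphaq. Of the 6910 exonic bases of Galphaq, 3050 overlap another gene on the same strand. Its level per kilobase may thus be too low, and its place in this order is uncertain. rdgB followed at 59.8 ± 3.51 CPM per kilobase, below the lowest Galphaq value and above the highest Calx value. Calx and rdgA at 41.3 ± 7.61 and 37.1 ± 9.04 overlapped, as did rdgC at 18.8 ± 15.2 and inaE at 16.5 ± 3.98. The photoreceptor-restricted genes other than Ggamma30A came last by mean, with ninaE at 9.52 ± 9.64, Rh2 at 8.54 ± 8.63, Arr2 at 8.38 ± 4.86, Rh4 at 2.41 ± 2.38 and Arr1 at 1.49 ± 1.53 CPM per kilobase. From Calx down to Arr1 each gene overlapped the next, also where the classes met, at inaE and ninaE. The spread between naive libraries differed by gene. The highest value of rdgB was 1.15 times the lowest and that of norpA 1.59 times, while the ratio was 4.00 for Arr2, 18.4 for Rh2 and 26.7 for Arr1. It did not follow the classes, with 6.80 for rdgC, used outside the eye, and 2.00 for the photoreceptor-restricted Ggamma30A. The largest ratios rest on low counts, since the lowest naive library held 14 counts of Rh2 and 3 of Arr1.

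**Figure D1:**
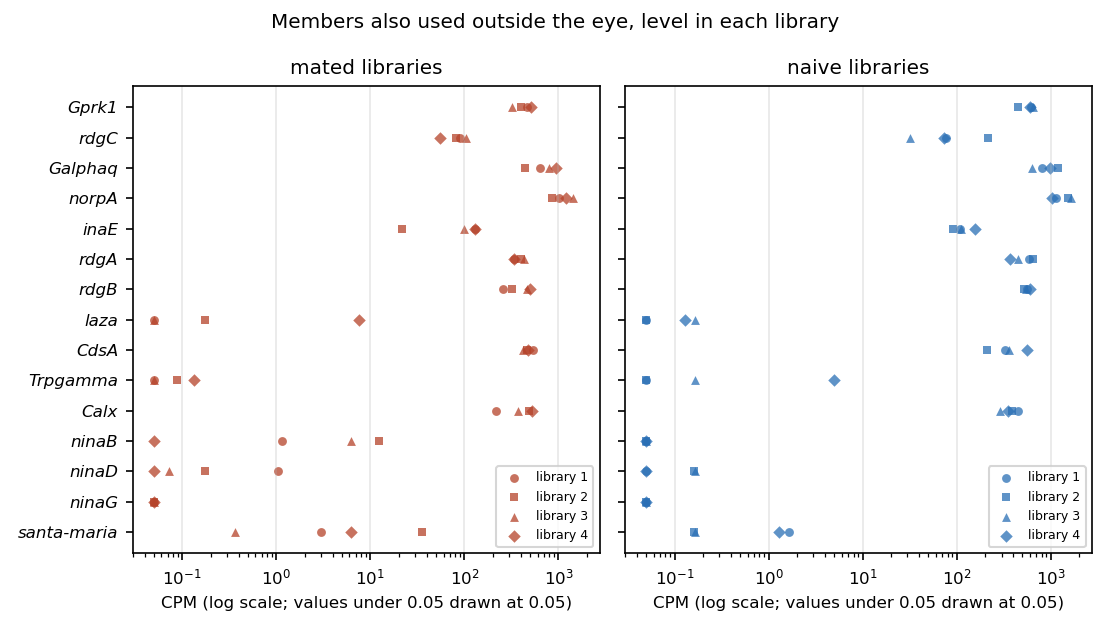
Level in CPM, on a log axis, of the 15 genes also used outside the eye in the mated libraries (left) and the naive libraries (right); each point is 1 library and values of 0 are drawn at 0.05. Of these genes, 9 lie between 21.5 and 1634 CPM in all libraries, and the other 6 do not exceed 35.8 CPM.

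The comparison of mated with naive males asked which transcripts of these neurons change with mating. Of the 33 genes, 21 passed the filter on low counts and were tested among 7090 genes with edgeR's quasi-likelihood test. Arr2 rose in mated males, and no other member passed: 1 of 21 was called higher and 0 were called lower at an adjusted p under 0.05, where 0.339% of all tested genes were called higher and 0.0423% lower. At an unadjusted p under 0.05 there were 6 higher (Arr1, Arr2, ninaE, Rh2, ninaC and santa-maria) and 1 lower (Ggamma30A), against 5.54% and 5.02% of all tested genes. DESeq2 called 6 members higher (Arr2, Arr1, ninaE, Gbeta76C, Rh3 and ninaB), against 3.53% of the genes it tested, and 0 lower, against 1.64%. With no filter on low counts, edgeR called 2 members higher (Arr1 and Arr2), against 0.391% of genes, and 0 lower, against 0.0384%. Among the tested members the groups did not overlap for 2 that were higher in mated libraries, Arr1 and Arr2, and 1 that was lower, rdgB, where 4.26% and 3.40% of all tested genes were so.

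The 11 tested photoreceptor-restricted genes had a median log2 fold change of 1.45, with 7 above 0, and the 10 tested genes used outside the eye had a median of -0.29, with 3 above 0. Over all tested genes the median was -0.01 and 49.5% were above 0. A gene that is low in naive libraries passes the filter only if it is high in mated ones. These medians, and the counts of members higher or lower given before them, thus describe the tested genes and not the whole lists. Among the members DESeq2 called, Rh3, ninaB and Gbeta76C had at most 5 counts in any naive library and could hardly come out lower.

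**Figure D2:**
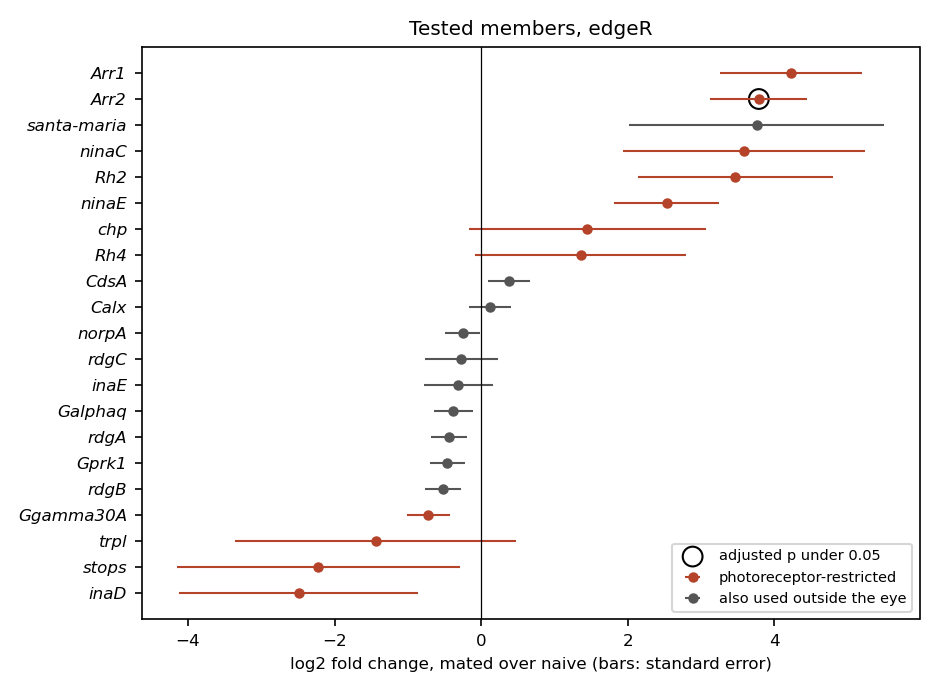
Log2 fold change, mated over naive, of the 21 tested genes from edgeR, with standard errors as bars; colour gives the class and a ring marks an adjusted p under 0.05. Arr2 at 3.79 carries the only ring, and the genes used outside the eye, apart from santa-maria at 3.76, lie between -0.52 and 0.38.

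Among the rhodopsins, the opsin proteins that absorb light, 3 of 6 were tested and all 3 had positive fold changes, but none passed. ninaE, which encodes the main opsin of the outer photoreceptors (FBgn0002940, arm 3R, 19886255 to 19888206 on the minus strand), had 172, 90.6, 51.9 and 34.5 CPM in mated libraries 1 to 4, against 7.85, 7.41, 38.1 and 7.11 CPM in naive libraries 1 to 4. Every mated value was above 3 of the naive values, and only naive library 3 overlapped them. Its log2 fold change was 2.53 ± 0.72 (SE; edgeR, unadjusted p = 0.00333, adjusted p = 0.168). Without naive library 3 the log2 fold change was 3.53 and the gene was called (edgeR, adjusted p = 0.0332; range over 19 alternatives 0.0139 to 0.733).

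Rh2, the opsin of the ocelli, the simple eyes on top of the head, had 0.694, 282, 201 and 31.4 CPM in mated libraries 1 to 4, against 1.53, 11.6, 28.2 and 5.30 CPM in naive libraries 1 to 4. In mated libraries 2, 3 and 4 it exceeded every naive library, but mated library 1 lay below them all. The difference, log2 3.47 ± 1.33 (SE), missed the threshold (edgeR, unadjusted p = 0.0248, adjusted p = 0.369). Rh4, an ultraviolet opsin of the inner photoreceptors, spanned 1.74 to 16.7 CPM in mated and 0.905 to 7.75 CPM in naive libraries, a difference of log2 1.36 ± 1.44 (SE; edgeR, adjusted p = 0.859).

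The other 3 rhodopsins were low in too many libraries to pass the filter for the test. Rh3, a second ultraviolet opsin, had 45, 100, 40 and 1 counts in mated libraries, against 1, 0, 0 and 1 counts in naive libraries. Its pooled rate was 65.4 times higher in mated libraries, with an exact 95% interval of 17.9 to 544 that covers counting error only. Rh5, the blue opsin, had 245, 3, 15 and 3 counts in mated libraries, against 1, 1, 0 and 2 counts in naive libraries, so that mated library 1 held 92.6% of its summed CPM. Rh6, the green opsin, had 20 counts in mated library 1 and at most 1 count in the other mated libraries, against at most 3 counts in naive libraries.

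The mix of rhodopsins differed from library to library. In mated library 1, ninaE gave 81.8% of the 1817 rhodopsin counts (95% Wilson interval 79.9% to 83.5%), Rh5 gave 13.5% (12.0% to 15.1%) and Rh2 gave 0.330% (0.151% to 0.719%). In mated libraries 2 and 3, Rh2 led with 70.8% of 4588 counts (69.5% to 72.1%) and 77.3% of 3579 counts (75.9% to 78.7%). Mated library 4, with 596 rhodopsin counts, had ninaE at 44.0% (40.0% to 48.0%) and Rh2 at 39.9% (36.1% to 43.9%), intervals that overlap. Naive libraries held only 109 to 408 rhodopsin counts each. ninaE gave 45.0%, 32.6%, 56.6% and 50.5% of them in naive libraries 1 to 4, the largest share in naive libraries 1, 3 and 4. Rh2 gave 51.1% of them in naive library 2, 41.9% in naive library 3 and 37.6% in naive library 4. In naive library 1, Rh4 gave 44.4% (36.9% to 52.1%), close to ninaE, and Rh2 gave 8.75% (5.28% to 14.2%). The Rh2 share thus spanned 0.330% to 77.3% within the mated group and 8.75% to 51.1% within the naive group.

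**Figure D3:**
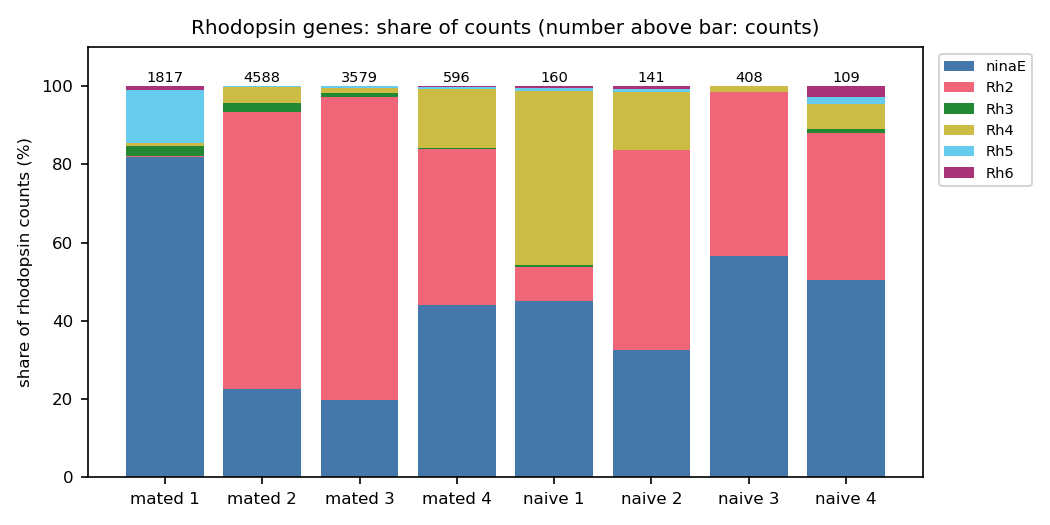
Share of rhodopsin counts, in percent, taken by each of 6 rhodopsin genes in every library, mated libraries first; the number above each bar is the library's rhodopsin count. Rh2 takes 70.8% and 77.3% in mated libraries 2 and 3 and 0.330% in mated library 1, where ninaE takes 81.8%.

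The arrestins bind light-activated rhodopsin and stop it from signalling, and both visual arrestins were higher in every mated library than in any naive one. Arr2, the main visual arrestin (FBgn0000121, arm 3L, 8647261 to 8648936 on the minus strand), had 97.7, 314, 271 and 39.3 CPM in mated libraries 1 to 4, against 21.3, 5.32, 8.07 and 17.2 CPM in naive libraries 1 to 4. Mated library 4 was the lowest of its group and still lay above naive library 1, the highest of the naive group. The means were 180 ± 133 CPM in mated and 13.0 ± 7.51 CPM in naive libraries (SD, n = 4). The log2 fold change was 3.79 ± 0.66 (SE; edgeR, adjusted p = 0.0196), higher in 4 of 4 mated libraries.

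The Arr2 call depended on single libraries, though its direction did not change in any of 19 alternative fits. Because the groups did not overlap, fits that only left out libraries could hardly turn that direction. Dropping 1 library at a time ended the call in 5 of 8 fits. The adjusted p (edgeR) was then 0.0524 when mated library 1 was dropped and 0.0901 for mated library 2. It was 0.0670, 0.0810 and 0.0863 when naive library 1, 2 or 4 was dropped. Over all alternatives the adjusted p ran from 5.25e-06 to 0.702, and the log2 fold change from 2.42 to 4.51. The sample titles carry a number that the labels do not explain, and only number 1119 holds both groups, with mated libraries 1 and 3 and naive library 3. Within it Arr2 had 97.7 and 271 CPM in the mated libraries and 8.07 CPM in the naive one. A fit with this number as a term takes its difference from these libraries alone and has little power. A call lost in that fit thus decides nothing about Arr2. With the title number as a term, no gene of the whole table was called, and Arr2 differed by log2 4.51 ± 1.55 (SE; edgeR, adjusted p = 0.702).

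Arr1, the second visual arrestin (FBgn0000120, arm 2L, 18078269 to 18081307 on the plus strand), had 45.8, 118, 91.8 and 20.8 CPM in mated libraries 1 to 4, against 0.327, 1.29, 8.73 and 4.40 CPM in naive libraries 1 to 4. As with Arr2, mated libraries 2 and 3 were highest and mated library 4 lowest of the group, and the groups did not overlap. Its difference of log2 4.23 ± 0.97 (SE) missed the threshold (edgeR, unadjusted p = 0.000613, adjusted p = 0.0776). It passed in 4 of 19 alternatives, with an adjusted p from 0.000155 to 0.702 over all of them.

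Of the other genes that end the response, ninaC encodes a myosin with a kinase domain that moves arrestin and binds calmodulin. It had 6.83, 27.4, 11.5 and 0.923 CPM in mated libraries 1 to 4, against 0.109, 0.322, 0.659 and 2.72 CPM in naive libraries 1 to 4. Mated library 4 fell within the naive range, and the log2 fold change was 3.59 ± 1.65 (SE; edgeR, unadjusted p = 0.0449, adjusted p = 0.460). stops, a SOCS-box gene needed for normal NORPA protein levels, was read in 3 mated libraries at 15 to 18 counts and in 2 naive libraries at 56 and 82 counts (log2 fold change -2.22 ± 1.93 SE; edgeR, adjusted p = 0.789). Gprk1, a kinase of G-protein-coupled receptors, had 467, 400, 318 and 510 CPM in mated libraries 1 to 4, against 620, 450, 654 and 599 CPM in naive libraries 1 to 4. The groups overlapped only through naive library 2 (log2 fold change -0.46 ± 0.24 SE; edgeR, adjusted p = 0.541). rdgC, a rhodopsin phosphatase, had 55.2 to 105 CPM in mated and 31.8 to 216 CPM in naive libraries (edgeR, adjusted p = 0.959).

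**Figure D4:**
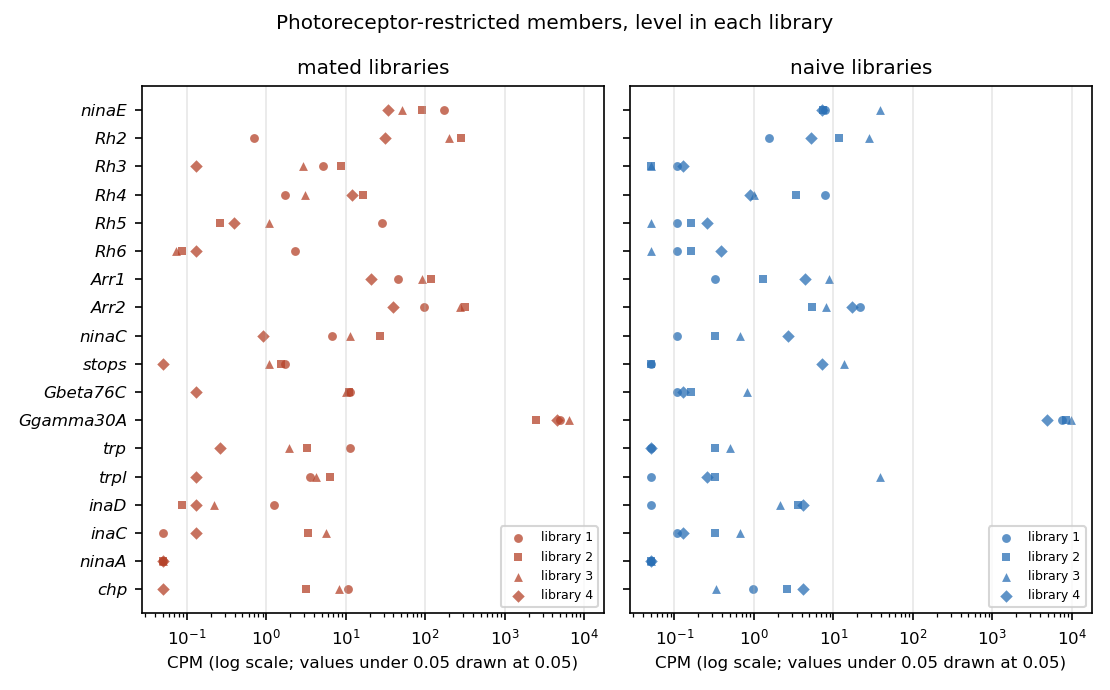
Level in CPM, on a log axis, of the 18 photoreceptor-restricted genes in the mated libraries (left) and the naive libraries (right); each point is 1 library and values of 0 are drawn at 0.05. Arr1 and Arr2 lie at 20.8 CPM or more in mated and at 21.3 CPM or less in naive libraries, and Ggamma30A stands apart from the rest in both groups.

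Of the 4 G protein and phospholipase genes, norpA, Galphaq and Ggamma30A were read in every library, and none of these 3 passed. norpA, the phospholipase C of phototransduction (FBgn0262738, arm X, 4322626 to 4365408 on the plus strand), had 1015, 858, 1432 and 1196 CPM in mated libraries 1 to 4, against 1142, 1535, 1634 and 1027 CPM in naive libraries 1 to 4. The groups overlapped widely, and the log2 fold change was -0.25 ± 0.24 (SE; edgeR, adjusted p = 0.832). Galphaq, the G protein alpha subunit upstream of norpA, had 642, 440, 786 and 936 CPM in mated libraries 1 to 4, against 811, 1200, 637 and 989 CPM in naive libraries 1 to 4 (log2 fold change -0.38 ± 0.27 SE; edgeR, adjusted p = 0.713). Of the 6910 exonic bases of Galphaq, 3050 overlap another gene on the same strand, so its level is uncertain. The eye beta subunit Gbeta76C had 97, 128, 140 and 1 counts in mated libraries, against 1, 1, 5 and 1 counts in naive libraries. It was high in mated libraries 1 to 3 and at a single count in mated library 4, and the filter kept it out of the edgeR test.

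Of the genes that recycle the lipid messengers, 4 of 5 were tested and none passed. rdgB, a phosphatidylinositol transfer protein, had 260, 320, 460 and 503 CPM in mated libraries 1 to 4, against 563, 519, 543 and 596 CPM in naive libraries 1 to 4. All mated values lay below all naive ones, yet the difference, log2 -0.52 ± 0.25 (SE), missed the threshold (edgeR, unadjusted p = 0.0557, adjusted p = 0.492). CdsA, listed under the name Cds, makes CDP-diacylglycerol for phosphoinositide synthesis, and had 531, 467, 417 and 475 CPM in mated libraries 1 to 4, against 328, 211, 358 and 556 CPM in naive libraries 1 to 4 (log2 fold change 0.38 ± 0.28 SE; edgeR, adjusted p = 0.723). rdgA, a diacylglycerol kinase, had 335 to 434 CPM in mated and 365 to 641 CPM in naive libraries, and inaE, a diacylglycerol lipase, 21.5 to 130 and 92.3 to 158 CPM. Neither passed (edgeR, adjusted p = 0.580 and 0.931). laza, a phosphatidic acid phosphatase of photoreceptors, had 57 counts in mated library 4 and at most 2 in any other library.

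Of the channels and their partners, the light-gated channel gene trp had 99, 37, 27 and 2 counts in mated libraries, against 0, 2, 3 and 0 counts in naive libraries. trpl, the second light-gated channel, had 31, 74, 58 and 1 counts in mated libraries, against 0, 2, 235 and 2 counts in naive libraries. Naive library 3 held 72.1% of the summed CPM of trpl and set its direction, at log2 -1.44 ± 1.92 (SE; edgeR, adjusted p = 0.912) over all libraries and log2 4.14 without that library. inaC, the eye protein kinase C, had 0, 39, 78 and 1 counts in mated libraries, against 1, 2, 4 and 1 counts in naive libraries. inaD, the scaffold that holds the channel, phospholipase and kinase together, went the other way with 11, 1, 3 and 1 counts in mated libraries, against 0, 22, 13 and 32 counts in naive libraries (edgeR, adjusted p = 0.661). Trpgamma, a related channel subunit also used outside the eye, had 38 counts in naive library 4 and at most 1 in each of the other libraries. Calx, the sodium-calcium exchanger, had 218 to 524 CPM in mated and 286 to 449 CPM in naive libraries (log2 fold change 0.12 ± 0.29 SE; edgeR, adjusted p = 0.976).

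Genes for the chromophore and for opsin maturation were near the floor in naive libraries. ninaB, the enzyme that cleaves carotenoids to make the chromophore, had 10, 144, 85 and 0 counts in mated libraries and none in naive libraries. Pooled over each group it was at least 56.0-fold higher in mated libraries, against a floor of 3 counts over the naive group. That bound covers counting error only, and mated library 2 held 63.0% of the summed CPM of ninaB. Of the 2164 exonic bases of ninaB, 144 overlap Adgf-D and f-cup on the other strand, and strand use is not stated. santa-maria, a scavenger receptor for carotenoid uptake, had 3.01, 35.8, 0.364 and 6.20 CPM in mated libraries 1 to 4, against 1.64, 0.161, 0.165 and 1.29 CPM in naive libraries 1 to 4. Mated library 2 held 73.6% of its summed CPM, and the difference, log2 3.76 ± 1.74 (SE), missed the threshold (edgeR, unadjusted p = 0.0468, adjusted p = 0.463). ninaD, a carotenoid receptor of the gut, had 9 counts in mated library 1 and at most 2 in any other library. ninaG, an oxidoreductase that acts in chromophore synthesis, had 0 counts in all 8 libraries, as did ninaA, the chaperone of the main opsin. All 871 exonic bases of ninaA overlap CG15824 on the other strand; the use of strand in counting is not stated, so its 0 may not measure its level. chp, the rhabdomere surface protein chaoptin, had 92, 36, 113 and 0 counts in mated libraries, against 9, 16, 2 and 32 counts in naive libraries (log2 fold change 1.45 ± 1.62 SE; edgeR, adjusted p = 0.877).

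Taken by library, the photoreceptor-restricted genes differed in number as well as in level. Leaving out Ggamma30A, a choice made after its values were seen, 15, 14, 15 and 7 of the other 17 reached 3 counts in mated libraries 1 to 4, against 6, 7, 12 and 10 in naive libraries 1 to 4. Mated library 4 thus held fewer of them than naive libraries 3 and 4. Their summed level was 400, 887, 666 and 140 CPM in mated libraries 1 to 4, against 40.4, 36.9, 141 and 54.5 CPM in naive libraries 1 to 4. Mated library 4 lay just below naive library 3, and the groups overlapped only there. With Ggamma30A the sums were dominated by that gene and averaged 5148 ± 1581 CPM in mated and 7696 ± 2086 CPM in naive libraries (SD, n = 4).

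Markers of other tissues also had higher mean summed levels in mated libraries, with groups that overlapped for glia and muscle and did not for fat body and hemocytes. The 8 glia markers summed to 302 to 1071 CPM in mated and 126 to 350 CPM in naive libraries. In mated libraries nrv2 alone averaged 409 CPM of a mean sum of 734 CPM. All 6 that were tested had positive fold changes, from log2 0.25 to 3.60, though 0 passed over all genes. An unadjusted p under 0.05 was found for 4 (edgeR), where 5.54% of all tested genes were so. The lowest change was that of repo, with means of 4.92 CPM in mated and 4.13 CPM in naive libraries. The 6 fat body markers summed to 1231 to 2954 CPM in mated and 243 to 607 CPM in naive libraries. All 6 had a positive fold change with an unadjusted p under 0.05, at a median log2 of 4.56 (edgeR). The yolk protein genes Yp1, Yp2 and Yp3 and the gene fit had log2 5.38, 6.21, 4.18 and 4.94. Lsp2 and apolpp had smaller changes, log2 1.74 and 2.09, and the higher mated means, 376 and 1027 CPM. Only apolpp passed over all genes (edgeR, adjusted p = 0.0163). The 7 muscle markers summed to 20.3 to 167 CPM in mated and 8.15 to 25.2 CPM in naive libraries, and the 5 hemocyte markers to 13.5 to 30.6 and 0.165 to 6.47 CPM; of those tested, 1 of 5 muscle and 1 of 2 hemocyte markers had an unadjusted p under 0.05, both higher, and 0 passed (edgeR). In these lists 1 hemocyte marker was at 0 in every naive library, and none was at 0 in every mated library. The order of libraries was only partly the same between lists. Mated library 3 had the second highest sum of photoreceptor-restricted genes without Ggamma30A and the lowest mated sum of glia and fat body markers. Mated library 2 had the highest sum both of those photoreceptor-restricted genes, 887 CPM, and of glia markers, 1071 CPM. Naive library 3 had the highest naive sum of those photoreceptor-restricted genes, fat body and muscle markers, and the lowest of glia and hemocyte markers. The 4 neuron markers all had negative fold changes, with a median log2 of -0.60; 3 had an unadjusted p under 0.05, against 5.02% of all tested genes, and 0 passed (edgeR). The part of these markers in the results above was not tested.

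**Figure D5:**
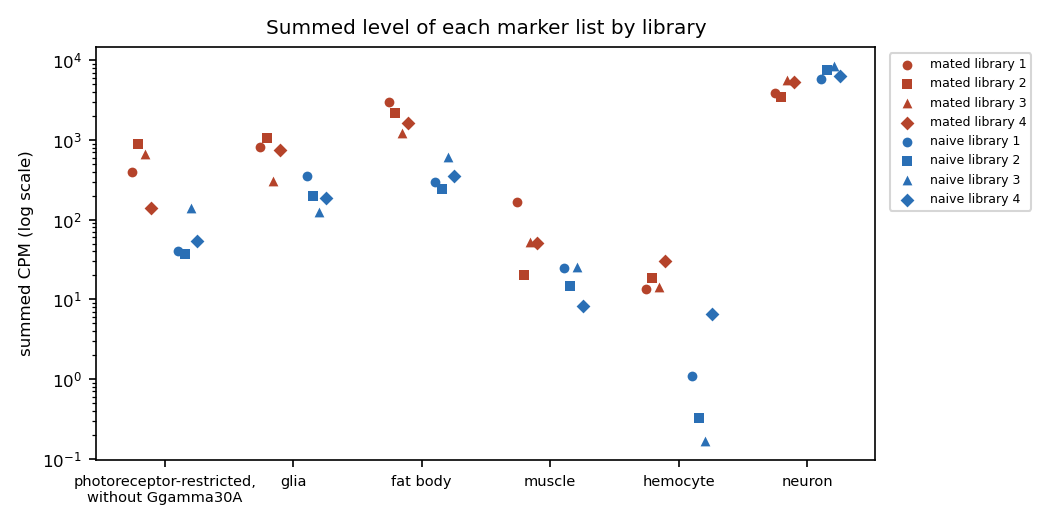
Summed CPM, on a log axis, of each marker list in every library, mated (red) left of naive (blue) within each list. The photoreceptor-restricted genes without Ggamma30A span 140 to 887 CPM in mated and 36.9 to 141 CPM in naive libraries, and the glia, fat body, muscle and hemocyte lists reach higher and the neuron list lower values in mated libraries.

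Photoreceptors signal with histamine, and Hdc, the gene for its synthesis, had 0, 13, 0 and 0 counts in mated libraries, against 0, 2, 0 and 0 counts in naive libraries. CarT, a carcinine transporter of photoreceptors, had 152 counts in mated library 1 and 0 in the other mated libraries, against 43, 4, 0 and 17 counts in naive libraries. Other members of the 8-gene histamine list had more counts in some mated libraries. The gene e, which encodes an enzyme that joins histamine to beta-alanine, had 263, 205, 1 and 8 counts in mated libraries, against 19, 2, 3 and 0 counts in naive libraries. The gene t, which encodes the enzyme that releases histamine again, had 4, 28, 15 and 0 counts in mated libraries, against 2, 0, 1 and 0 counts in naive libraries. HisCl1, a histamine receptor, had 352 counts in mated library 1 and 0 in the other mated libraries, against 15, 0, 0 and 0 counts in naive libraries. The receptor gene ort and BalaT were at 0 counts in all 8 libraries, and Lovit, the 1 gene of the list that was tested, was not called (edgeR, adjusted p = 0.976). The list summed to 27.7 to 109 CPM in mated and 22.6 to 57.7 CPM in naive libraries, ranges that overlap.

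Other genes of the pathway were taken from a list of 18 partners, all of which had rows. Of these, 15 were tested, 4 with positive and 11 with negative fold changes, a median log2 of -0.32, and 0 called (edgeR); 3 of 15 had an unadjusted p under 0.05, all lower, where 5.02% of all tested genes were so. These 3 were the phospholipase gene Plc21C with 553 ± 147 CPM in mated and 805 ± 83.7 CPM in naive libraries, the G protein beta subunit Gbeta13F with 1287 ± 335 and 1836 ± 157 CPM, and calmodulin, Cam, with 6602 ± 2006 and 9790 ± 2356 CPM (SD, n = 4). Gbeta13F was read at 947 CPM or more in each library, while the eye subunit Gbeta76C did not exceed 11.2 CPM in any. Pkc53E, a kinase close to inaC, had 1015 ± 141 CPM in mated and 1276 ± 223 CPM in naive libraries, where inaC did not exceed 5.68 CPM in any. Rh7, an opsin also found in the brain, was read in all 8 libraries, at 14.6, 0.435, 36.0 and 13.7 CPM in mated libraries 1 to 4, against 4.69, 2.58, 19.0 and 19.9 CPM in naive libraries 1 to 4 (log2 fold change 0.49 ± 1.25 SE; edgeR, adjusted p = 0.977).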

How the data were processed

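The 16 entries are sequencing runs A and B of 8 libraries, 4 mated and 4 naive, grouped by the treatment label. Per the labels' protocols, cDNA was amplified for 15 rounds, sheared to 200 bp and amplified for 12 more, which can lose rare transcripts by chance. The authors deposited raw read counts per gene for each run and their sum, and the sum equalled A plus B for all 17559 genes. Per the submitters' processing notes, HISAT2 2.2.1, featureCounts 1.6.2 and the builds dm6 and BDGP6 were used; strand use is not given in the sources used here. Symbols came from the supplied name tables, and CdsA was matched as a RefSeq synonym of Cds. Coordinates, exon lengths and overlaps came from Ensembl BDGP6 release 115.

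The summed counts of runs A and B went into edgeR 4.0.16 under R 4.3.3 (filterByExpr, TMM, glmQLFit with robust estimation, glmQLFTest, group as the only term, Benjamini-Hochberg over 7090 genes, threshold 0.05). The standard error is the fitted coefficient over the square root of F. DESeq2 1.42.0 was an alternative. The code was tested on simulated counts. The members, lists, classes and naming rule (members at an unadjusted p under 0.05, and the 5 of highest level per exon length, given per library) were chosen with earlier results of these data known. Promoter motifs and protein identities were planned and not analysed here.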

Additional observations from a re-analysis of the deposited data

Results flagged for a closer look

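In each group of 4 libraries, the levels, as log2(CPM + 0.5), of the 21 tested genes, the summed rhodopsins and the summed photoreceptor-restricted genes without Ggamma30A were examined for a library that stood far from the other 3. Of 46 such groups of values, 3 had one, where chance gives about 1 in 20. ninaE stood at 38.1 CPM in naive library 3 and at 7.11 to 7.85 CPM in the other naive libraries. trpl stood at 38.7 CPM in the same naive library and at 0 to 0.322 CPM in the others. inaE stood at 21.5 CPM in mated library 2 and at 99.3 to 130 CPM in the other mated libraries.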

How the results depend on the processing

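No paired analysis was possible because the labels do not say which mated library belongs with which naive one. Over 392 alternative values for the 21 tested genes, 371 kept their direction and their side of the threshold, 8 reversed, 7 lost and 6 gained a call. Arr2 lost its call with the title number as a term (log2 4.51), without mated libraries 2 and 3 together (2.42, chosen after seeing the data) and in 5 of the 8 fits without 1 library, which spanned 3.39 to 4.13. Members called higher numbered 6 with DESeq2, 2 with no filter, 2 with the B run alone, 0 with the title number, 0 without mated libraries 2 and 3 and 0 to 3 without 1 library; 0 were called lower in any alternative. Over all tested genes, calls higher numbered 289 with DESeq2, 51 with no filter, 43 with library size alone, 43 with the B run, 0 with the title number, 14 without mated libraries 2 and 3, and 6 to 47 without 1 library, against 24. Calls lower numbered 134, 5, 3, 4, 0, 1 and 0 to 6 in that order, against 3. The sign turned with the title number for rdgC (log2 1.61), Galphaq (0.16) and inaE (0.03), and without mated libraries 2 and 3 together for inaE (0.16). Over the fits without 1 library, rdgC spanned -0.57 to 0.44 (positive without naive library 2), inaE -0.50 to 0.02 (positive without mated library 2), trpl -1.88 to 4.14 (positive without naive library 3) and Calx -0.05 to 0.32 (negative without mated library 4); the cause was not tested. The median log2 of all genes was 0.17 with library size alone and 0.19 with the title number, against -0.01, and that of the tested members was -0.07 and 0.16, against -0.25. Without Ggamma30A the mean summed level of the photoreceptor-restricted genes was 523 CPM in mated and 68.3 CPM in naive libraries. A floor of 10 counts left 13 genes read in all naive libraries, and scaling to the smallest library 14, against 15. What can be said of the 12 untested genes is limited by low counts. They had at most 38 counts in any naive library and at most 245 in any mated library (Rh5 in mated library 1). Why they were low was not tested.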

Other observations

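Of 10 matched genes of eye structure, pigment and eye development, 3 were tested and 0 called (edgeR), with 2 at an unadjusted p under 0.05, both lower, where 5.02% of all tested genes were so. eys, which encodes the protein that fills the space between rhabdomeres, had 195 ± 63.8 CPM in mated and 319 ± 35.0 CPM in naive libraries (SD, n = 4; edgeR, adjusted p = 0.358). w, an ABC transporter of eye pigment precursors, had 49.5 ± 17.9 CPM in mated and 113 ± 71.7 CPM in naive libraries (edgeR, adjusted p = 0.409). Crys, a protein of the corneal lens, was not tested and had 4, 84, 23 and 108 counts in mated libraries, against 0, 0, 2 and 0 counts in naive libraries. pinta, a retinoid-binding protein of the eye, had 143, 418, 2 and 3 counts in mated libraries, against 23, 2, 2 and 1 counts in naive libraries. rtp, which encodes retinophilin, had 4, 125, 43 and 3 counts in mated libraries, against 0, 3, 2 and 1 counts in naive libraries. sev, a receptor kinase of the developing eye, had 4.66 to 17.6 CPM in mated and 0 to 10.1 CPM in naive libraries (edgeR, adjusted p = 0.734).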
